A study of Mus musculus with 16 samples.

Results

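The collagen genes are the subject here, taken as the probes whose gene name has the form Col, a type number, a and a chain number. The name fitted 44 genes and 69 probes. A gene was kept where a probe stood well above background on 4 or more of the 16 arrays, and each gene was represented by its brightest kept probe, which left 37 collagen genes among 24543 genes tested. They comprise 10 fibrillar collagens, 6 type IV chains of basement membranes and 21 other collagens. The names Col2a1, Col6a6, Col9a3, Col10a1, Col17a1 and Col19a1 had no probe well above background on any array, and Col9a1 had one on 1 array. The genes just inside the limit were Col11a1 and Col13a1, each on 4 arrays, then Col22a1 and Col25a1 on 6 and Col15a1 on 7. Of the 37 genes, 26 were well above background on all 16 arrays, and only these have a level measured in every mouse.

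RNA came from whole colorectal tissue of ApcMin/+ mice, which are heterozygous for a truncating Apc allele and form intestinal tumours, so all groups carry that allele. The 6 5-ASA mice were given dextran sulphate sodium (DSS, an agent that injures the colonic epithelium) at 1.5% in their water for 3 days, and 5-aminosalicylic acid (5-ASA, which dampens inflammation and is given to people with ulcerative colitis). The 6 Control mice were given the same DSS course and saline. The 4 Sham mice drank water without DSS, and samples were labelled day 28. The labels disagree on how 5-ASA was given, into the colorectum over 28 days or with the drinking water over 25 days once DSS had ended. They give no age, sex or litter. Levels are log2 signal relative to the 75th percentile of the same array, so 1 unit is a factor of 2, and a level can be compared between mice for the same probe but not between probes.

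Collagens are triple-helical proteins of the extracellular matrix, secreted in the gut chiefly by fibroblasts and smooth muscle cells. Fibrillar collagens form the fibres of the submucosa and muscle wall, type IV collagens form the sheet under epithelium, vessels and muscle, and most others bind fibrils to each other or to cells. Their chains are modified and folded in the endoplasmic reticulum, trimmed outside the cell and cross-linked.

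The arrays lay on 2 slides, each with 3 5-ASA, 3 Control and 2 Sham arrays. Row 2 of the slides held all 5-ASA arrays with Control 3 and Control 6, and row 1 held Control 1, 2, 4 and 5 with all Sham arrays, so 5-ASA and Sham never shared a row. Between 53.0% and 57.7% of spots were well above background in row 2, against 59.8% to 65.2% in row 1. All 10 epithelial markers, all 12 smooth muscle markers and all 12 fibroblast markers were well above background on every array. In bulk tissue, fewer cells of a type and less RNA per cell cannot be told apart.

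**Figure D1:**
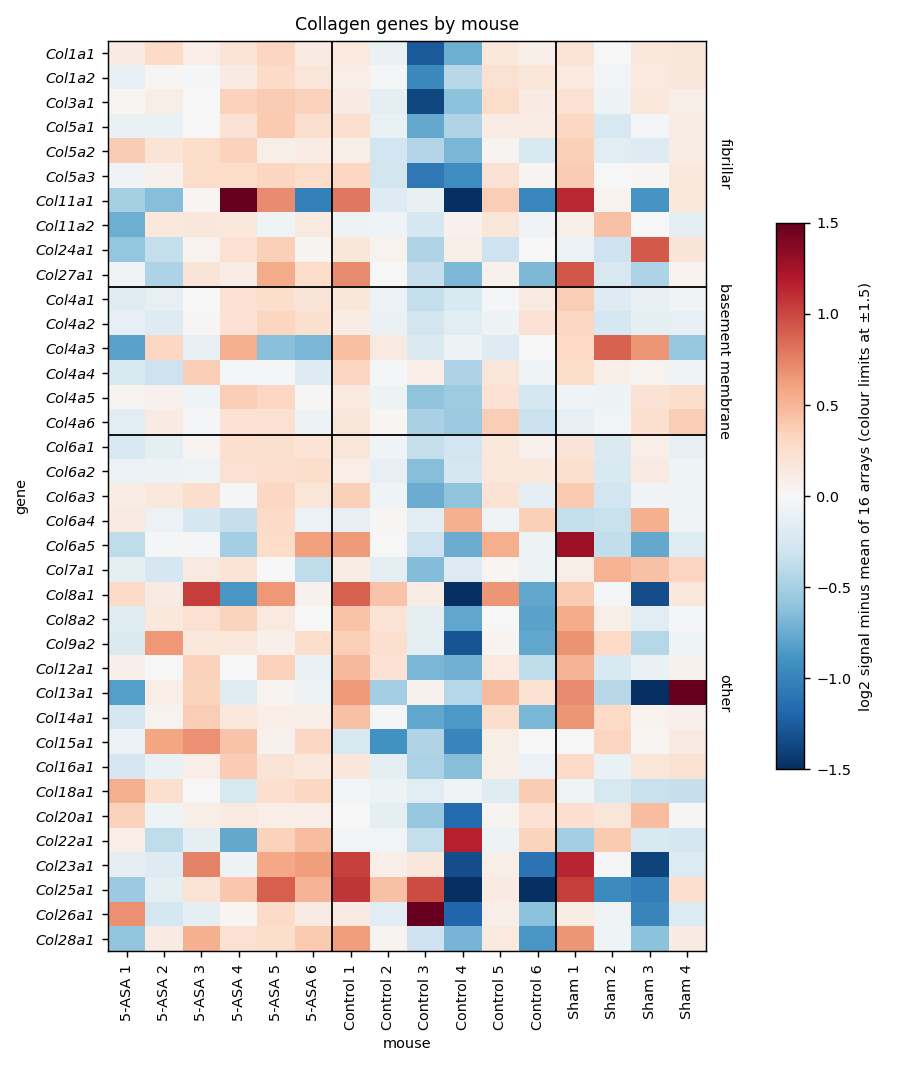
Heat map of the 37 collagen genes (rows, by class) in 16 mice (columns, by group), as log2 signal minus the gene's mean over the 16 arrays, with colours limited at 1.5 either side of 0. Control 3 and Control 4 are blue across most fibrillar collagens and many others, while most other mice lie nearer 0 for those genes. Sham 1 has the highest level for 9 of the 26 collagens measured on all arrays.

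The main feature of the fibrillar collagens was a pair of Control mice with low levels. Col1a1, which encodes the main chain of type I collagen and was measured at chr11:94813115-94813174 (mm9), ran from a lowest level of 3.98 over a median of 4.04 to a highest of 4.20 in 5-ASA mice. In Control mice its lowest level was 2.62, its median 3.88 and its highest 4.04, and in Sham mice the levels were 4.08, 3.87, 4.03 and 4.05. The low values were those of Control 3 at 2.62 and Control 4 at 3.15, and the other 4 Control mice, between 3.78 and 4.04, lay among or near the mice of the other groups. Col1a2, the second chain of type I, ranged from 5.13 over a median of 5.32 to 5.53 in 5-ASA mice and from 4.28 over 5.29 to 5.48 in Control mice, and stood at 5.39, 5.21, 5.39 and 5.42 in Sham mice. Control 3 at 4.28 and Control 4 at 4.83 were again the 2 lowest of the 16 mice.

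Col3a1, the chain of type III collagen, which co-assembles with type I in elastic tissues, ranged from 4.71 over 4.93 to 5.10 in 5-ASA mice and from 3.35 over 4.71 to 4.99 in Control mice. Its Sham levels were 4.95, 4.64, 4.88 and 4.81. Control 3 at 3.35 and Control 4 at 4.10 lay below all other mice, the lowest of which had 4.58. The type V chains, which start fibrils and limit their width, showed the same 2 mice at the bottom. Col5a1 was at 0.55 in Control 3 and 0.86 in Control 4, and Col5a3 was at -0.17 and -0.03. Col5a2 differed in that Control 2 and Control 6 were low too. It ranged from -1.27 over -1.12 to -0.98 in 5-ASA mice and from -2.05 over -1.62 to -1.27 in Control mice, and stood at -1.0, -1.52, -1.55 and -1.25 in Sham mice. The ranges of 5-ASA and Control mice met at -1.27.

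The remaining fibrillar genes were dim or did not single out the same mice. Col27a1, a fibrillar collagen of developing cartilage, was lowest in Control 4 and Control 6, both at -2.36. Col11a1 and Col11a2, chains of the thin fibrils of cartilage, were well above background on 4 and 11 arrays, and Col24a1, a fibrillar collagen of bone, on 9. Their ranges over the 16 mice were -7.62 to -2.84, -4.98 to -3.80 and -4.88 to -3.38, and below background such levels have no firm order.

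The low mice were not spread evenly over the collagens. Of the 26 collagens well above background on all arrays, Control 3 had the lowest level in 12 and Control 4 in 10. Over the 19815 genes measured on all arrays, these mice were lowest for 8.16% and 17.4%. At the other end, Sham 1 had the highest level in 9 of the 26 and 5-ASA 5 in 5. Sham 1 and 5-ASA 5 were highest for 9.01% and 2.12% of the genes measured on all arrays. The SD between mice was larger in Control than in 5-ASA mice for 31 of 37 collagens (83.8%), against 48.6% of all genes tested. The median SD was 0.23 in 5-ASA, 0.46 in Control and 0.25 in Sham mice. Without Control 3 and Control 4, a choice made after seeing the data, the SD was larger in Control for 19 of 37 collagens (51.4%), against 35.9% of all genes. Control 3 had the highest diarrhea score in the labels, 1.5, followed by Control 4 and Control 6 at 1. Every other mouse had 0.5 or 0.

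**Figure D2:**
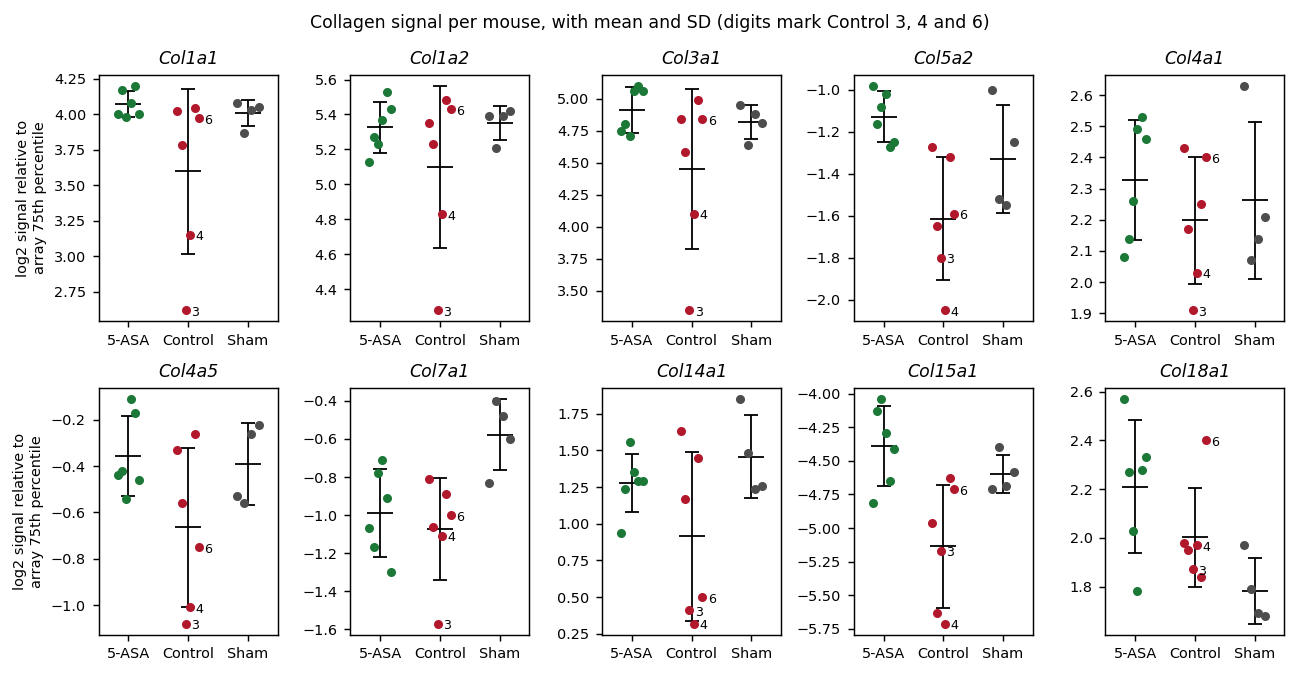
Level of 10 collagen genes in each mouse (points), by group, as log2 signal relative to the array's 75th percentile, with mean and SD as bars and separate vertical scales. Control 3 and Control 4 lie lowest for Col1a1, Col1a2, Col3a1, Col4a1 and Col4a5, Control 6 joins them for Col14a1, and Col18a1 is spread differently.

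The promoter of Col1a2 is printed because the type I chains carry this pattern. It is the RefSeq window from 250 bases before to 50 after the gene start in GRCm38.p6, chr6:4505368-4505667 on the plus strand, with each CCAAT box, read on either strand, in capitals.
Col1a2: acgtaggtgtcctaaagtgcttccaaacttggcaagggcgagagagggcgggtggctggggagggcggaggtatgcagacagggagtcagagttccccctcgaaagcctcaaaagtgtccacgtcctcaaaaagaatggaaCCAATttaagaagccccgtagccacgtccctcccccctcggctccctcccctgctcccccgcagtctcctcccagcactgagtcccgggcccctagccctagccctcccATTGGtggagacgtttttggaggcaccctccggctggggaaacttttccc
The letters CCAAT were found once on each strand. CCAAT on either strand occurred in 37.4% of 32851 mouse promoter windows of this length and in 34.4% of the 32 windows found for 30 of the collagen genes. GGGCGG, the GC box, occurred in 35.7% of all windows and in 68.8% of the collagen windows. TATAAA occurred in 13.6% of all windows and in 9.38% of the collagen windows. The motifs were searched on both strands.

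Over the 16 mice Col4a1 and Col4a2 had an SD of 0.21 each, against 0.41 for Col1a1, 0.31 for Col1a2 and 0.44 for Col3a1. Within groups this order held in Control mice only. The SD of Col4a1 and Col4a2 was 0.19 and 0.21 in 5-ASA mice and 0.25 each in Sham mice. For Col1a1, Col1a2 and Col3a1 it was 0.09, 0.15 and 0.18 in 5-ASA mice and 0.09, 0.09 and 0.13 in Sham mice. Col4a1 and Col4a2, the chains of the basement membrane network found in nearly all tissues, are transcribed from opposite strands. Their gene starts lie 21 bases apart, at 11312826 for Col4a1 on the minus strand and 11312805 for Col4a2 on the plus strand. Each start therefore lies inside the other gene, and the genes overlap there. Their promoter windows in GRCm38.p6, chr8:11312777-11313076 on the minus strand and chr8:11312555-11312854 on the plus strand, share 78 bases. These are printed because the levels of this pair followed each other with and without the outlying mice, and the shared bases, each the reverse complement of the other, are in capitals.
Col4a1: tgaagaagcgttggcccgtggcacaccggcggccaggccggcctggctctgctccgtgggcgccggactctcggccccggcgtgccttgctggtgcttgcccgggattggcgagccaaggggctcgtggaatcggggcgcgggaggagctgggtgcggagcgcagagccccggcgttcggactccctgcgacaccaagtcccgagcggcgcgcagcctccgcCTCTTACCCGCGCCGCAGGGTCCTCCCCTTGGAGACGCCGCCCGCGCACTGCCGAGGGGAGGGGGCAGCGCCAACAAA
Col4a2: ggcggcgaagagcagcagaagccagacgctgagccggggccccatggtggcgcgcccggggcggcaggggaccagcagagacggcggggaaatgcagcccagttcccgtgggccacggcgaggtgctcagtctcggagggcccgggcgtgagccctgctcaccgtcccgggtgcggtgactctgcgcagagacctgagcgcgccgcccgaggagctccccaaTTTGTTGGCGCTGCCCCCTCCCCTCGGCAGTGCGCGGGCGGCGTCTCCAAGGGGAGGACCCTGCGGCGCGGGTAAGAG
Col4a1 ranged from 2.08 over 2.36 to 2.53 in 5-ASA mice and from 1.91 over 2.21 to 2.43 in Control mice, and was at 2.63, 2.07, 2.14 and 2.21 in Sham mice. Col4a2 ranged from 1.92 over 2.23 to 2.44 in 5-ASA mice and from 1.84 over 2.03 to 2.33 in Control mice, and was at 2.42, 1.86, 1.98 and 1.99 in Sham mice. For both genes the 3 groups overlapped over most of their range, and Control 3 was the lowest mouse. Sham 1 was the highest of the 16 mice for Col4a1 and the second highest for Col4a2. The probe for Col4a1 was printed 10 times on each array. The SD over its 10 spots was 0.035 to 0.059 within an array, against an SD between mice of 0.193 in 5-ASA, 0.207 in Control and 0.249 in Sham mice.

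Col4a5 and Col4a6 are chains of the network around smooth muscle, and their gene starts lie 1343 bases apart on the X chromosome. They were low in Control 3 and Control 4, as types I and III were, but also in Control 6, where types I and III were not. Col4a5 ranged from -0.54 over -0.43 to -0.11 in 5-ASA mice and from -1.08 over -0.65 to -0.26 in Control mice, and was at -0.53, -0.56, -0.26 and -0.22 in Sham mice. Control 3, Control 4 and Control 6 were the 3 lowest mice for both genes. A second kept probe of Col4a6 gave 0.18 in Control against Sham mice, against -0.25 for the probe used. Col4a3 and Col4a4, chains best known from the kidney filter, were not lowest in Control 3, but Col4a4 was lowest in Control 4, at -4.01. Col4a3 was well above background on 10 arrays.

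Of 6 pairs of chains compared over the 16 mice, all had a positive r that passed the permutation test after adjustment, and Col5a1 with Col5a2 did not pass by rank. The r of the fibrillar pairs was lower without Control 3 and Control 4. Col4a1 and Col4a2 had a Pearson r of 0.96 (permutation p = 1e-05, the smallest that the permutations can give, adjusted p = 3e-05) and a Spearman rho of 0.96 (adjusted p = 3e-05). Within the slides r was 0.97 and 0.96, and without the 2 mice farthest from the median, Control 3 and Sham 1, it was 0.96. Col6a1 and Col6a2, which encode chains of the same type VI monomer and lie near each other on chromosome 10, had r = 0.92 and rho = 0.93 (adjusted permutation p = 3e-05 for each), and r = 0.92 without Control 3 and Control 4. These pairs followed each other in the other mice as well.

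Col1a1 and Col1a2, whose products join in 1 molecule, had r = 0.95 (permutation p = 0.00019, adjusted p = 0.000285) and rho = 0.64 (p = 0.00953, adjusted p = 0.0143). Without Control 3 and Control 4 their r was 0.51 (permutation p = 0.0597, adjusted p = 0.0896), so the call rested on those mice, while rho after centring each group on its mean was 0.88 (adjusted permutation p = 6e-05). Col1a1 and Col3a1 had r = 0.97 (permutation p = 2e-05, adjusted p = 4e-05) and rho = 0.76 (p = 0.00089, adjusted p = 0.00178), and r = 0.71 without these mice (adjusted p = 0.00686). Col5a1 and Col5a2 had r = 0.67 and rho = 0.45 (permutation p = 0.005 and 0.0821, which the adjustment left as they were), and r = 0.32 without them. Col1a1 and Col4a1, across classes, had r = 0.63 (permutation p = 0.00234, adjusted p = 0.00281) and rho = 0.62 (p = 0.0123, adjusted p = 0.0148), and r = 0.42 without them. After each group was centred on its mean, r was 0.61 to 0.97 for the 6 pairs, so the relations were not only differences between group means. On slide 1 r was 0.59 to 0.99 and on slide 2 it was 0.68 to 0.98, with 8 mice each.

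**Figure D3:**
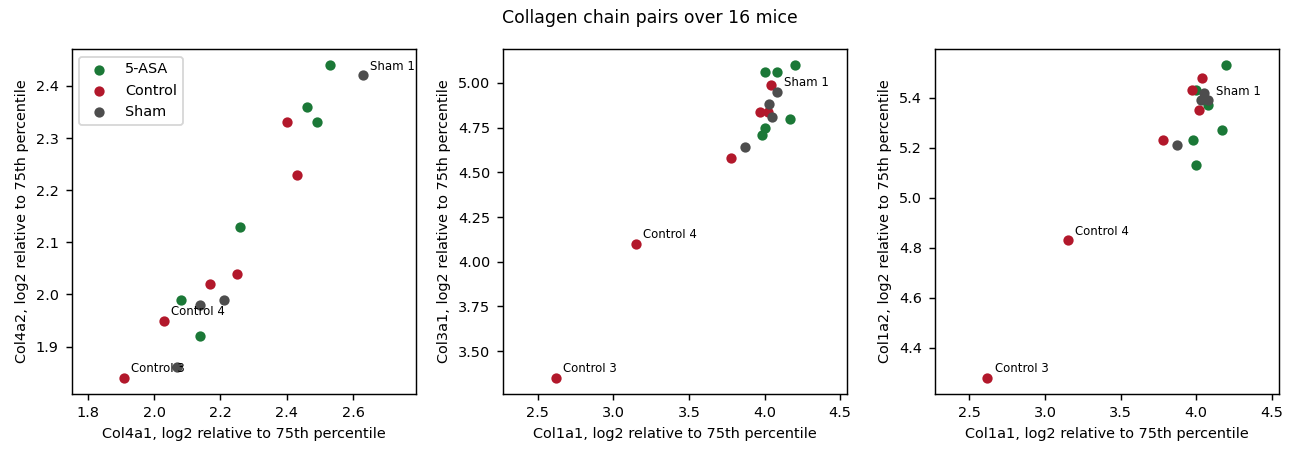
Levels of 3 pairs of collagen chains in the 16 mice (points, coloured by group), both axes in log2 signal relative to the array's 75th percentile. Col4a1 and Col4a2 lie along a line over their whole range, whereas Control 3 and Control 4 carry most of the range for Col1a1 with Col3a1 or Col1a2.

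The other collagens held several patterns. Col6a1, Col6a2 and Col6a3, the chains of the beaded filaments that lie close to cells, were lowest in Control 3, at 3.79, 0.83 and 2.26. Col6a4 and Col6a5, later members of that family, were not lowest there. Col12a1 and Col14a1, which decorate the surface of type I fibrils, were low in Control 3, Control 4 and Control 6. Col14a1 ranged from 0.94 over 1.29 to 1.56 in 5-ASA mice and from 0.32 over 0.83 to 1.63 in Control mice, and was at 1.85, 1.48, 1.24 and 1.26 in Sham mice. Its Control levels fell into a low set of 0.41, 0.32 and 0.50 in Control 3, 4 and 6 and a set of 1.17 to 1.63 that overlapped the other groups. Col16a1, a further fibril-associated collagen, was lowest in Control 4 at 2.84 and Control 3 at 3.00.

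Col8a2, a short-chain collagen of vessel walls, and Col9a2, which binds cartilage fibrils, were lowest in Control 4 and Control 6. Col8a2 was at -2.52 and -2.55 in these mice and at -1.89 or above in all other mice except 5-ASA 1 and Sham 3, at -1.92 and -1.91. Col23a1, a transmembrane collagen, was lowest in Sham 3, at -2.84, ahead of Control 4 at -2.78 and Control 6 at -2.55. Col8a1 was lowest in Control 4 at -2.59 and next lowest in Sham 3 at -2.12. Control 3, the lowest mouse for types I and III, was not among the 3 lowest mice for any of these 4 genes.

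For Col7a1 and Col18a1 most Sham mice lay toward 1 end of the levels, although Col7a1 was also lowest in Control 3, at -1.57. Col7a1, the collagen of the anchoring fibrils that hold stratified epithelium to its base, was measured at chr9:108886861-108886920 (mm9) and ranged from -1.30 over -0.99 to -0.71 in 5-ASA mice and from -1.57 over -1.03 to -0.81 in Control mice. Sham 1 to 4 had -0.83, -0.40, -0.48 and -0.60, so 3 of 4 Sham mice lay above every DSS mouse and Sham 1 lay among them. Col18a1, a basement membrane collagen whose end fragment is endostatin, was measured at chr10:76514926-76514985 (mm9) and ranged from 1.78 over 2.28 to 2.57 in 5-ASA mice and from 1.84 over 1.96 to 2.40 in Control mice. In Sham mice Col18a1 was at 1.97, 1.79, 1.69 and 1.68, below 5 of the 6 5-ASA mice.

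Col15a1, a relative of Col18a1 in the matrix next to basement membranes, was dim. It ranged from -4.81 over -4.35 to -4.04 in 5-ASA mice and from -5.71 over -5.06 to -4.63 in Control mice, and stood at -4.71, -4.40, -4.69 and -4.58 in Sham mice. Its probe was well above background on 1 of 6 5-ASA, 2 of 6 Control and 4 of 4 Sham arrays, so most of the 5-ASA and Control levels lie near background. Col20a1, a fibril-associated collagen, was at -1.93 in Control 3 and -2.53 in Control 4 and between -1.51 and -0.90 in the other 14 mice. Col13a1 and Col25a1, which are transmembrane collagens, and Col22a1, a collagen of tissue junctions, were not well above background on any 5-ASA array. They were so on 2, 4 and 4 Control arrays. All 5-ASA arrays lay in the row with fewer spots well above background, and the levels of these genes overlapped between 5-ASA and Control mice. Col6a5, Col26a1 and Col28a1 were well above background on 10, 8 and 10 arrays.

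In 5-ASA against Control mice, which sets DSS and the drug against DSS and saline, most collagens were higher with 5-ASA but none passed the test. All 10 fibrillar collagens, 4 of 6 type IV and 17 of 21 others had a higher mean in 5-ASA mice, or 31 of 37. Among all genes tested, 49.6% were higher and 50.4% lower. Of the fibrillar genes, all 7 measured on every array were higher. The dim Col11a1, Col24a1 and Col11a2 differed by 0.58, 0.04 and 0.00. The median log2 difference was 0.26 over the collagens and -0.001 over all genes, and it was 0.36 for fibrillar, 0.13 for type IV and 0.27 for other collagens. None of the 37 was called at an adjusted p under 0.05 (limma, Benjamini-Hochberg over 24543 genes), nor was any of all genes tested (0%). At an unadjusted p under 0.05, 5 collagens were higher and 0 lower, against 1.41% of all genes higher and 2.64% lower, 4.05% together. The 5-ASA and Control levels overlapped for all 37 collagens, while 5-ASA lay entirely above Control for 0.0163% of all genes and entirely below for 0.122%. These 5 were Col15a1, Col5a2, Col1a1, Col5a3 and Col4a5.

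Col5a2 averaged -1.13 ± 0.12 in 5-ASA and -1.61 ± 0.29 in Control mice (SD, n = 6 each), a log2 difference of 0.49 with an SE of 0.13 (limma, adjusted p = 0.999). This is a 1.40-fold higher signal, and it was 0.50 and 0.47 within slides 1 and 2. Col1a1 averaged 4.07 ± 0.09 in 5-ASA and 3.60 ± 0.58 in Control mice, a difference of 0.47 with an SE of 0.20 (limma, adjusted p = 0.999). The difference of Col1a1 was 0.12 without Control 3 and Control 4, whereas that of Col5a2 was 0.33. Col3a1 differed by 0.46 (SE 0.22, adjusted p = 0.999) and Col5a3 by 0.49 (SE 0.21, adjusted p = 0.999), and without these mice by 0.10 and 0.13.

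Col15a1 had the smallest p of the collagens in this comparison. It averaged -4.39 ± 0.30 in 5-ASA and -5.13 ± 0.46 in Control mice, a difference of 0.74 with an SE of 0.19 (limma, adjusted p = 0.999). Its other kept probe gave 0.02, and both are near background. Col4a5 differed by 0.31 (SE 0.14, adjusted p = 0.999), while Col4a1 differed by 0.13 and Col4a2 by 0.12 (SE 0.12 each, adjusted p = 0.999). The 95% interval for Col4a1 ran from -0.13 to 0.39 and that for Col4a2 from -0.13 to 0.38. The collagens with a lower mean in 5-ASA mice were Col4a3, Col4a4, Col6a4, Col6a5, Col13a1 and Col22a1, with differences of -0.25 to -0.01.

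Of the other collagens, the type VI chains differed by 0.11 for Col6a1 (SE 0.12), 0.19 for Col6a2 (SE 0.14) and 0.33 for Col6a3 (SE 0.17). The fibril-associated collagens had 0.37 for Col14a1 (SE 0.22), 0.27 for Col12a1 (SE 0.20), 0.26 for Col16a1 (SE 0.14) and 0.39 for Col20a1 (SE 0.19). Col7a1 differed by 0.08 (SE 0.13) and Col18a1 by 0.21 (SE 0.13). Among the fibrillar and type IV genes, Col1a2 differed by 0.23 (SE 0.17), Col5a1 by 0.25 (SE 0.16) and Col4a6 by 0.18 (SE 0.16). All of these had an adjusted p of 0.999. Without Control 3 and Control 4 the differences of Col1a2, Col4a6, Col6a1, Col7a1 and Col12a1 were at or just below 0, between -0.05 and -0.01.

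**Figure D4:**
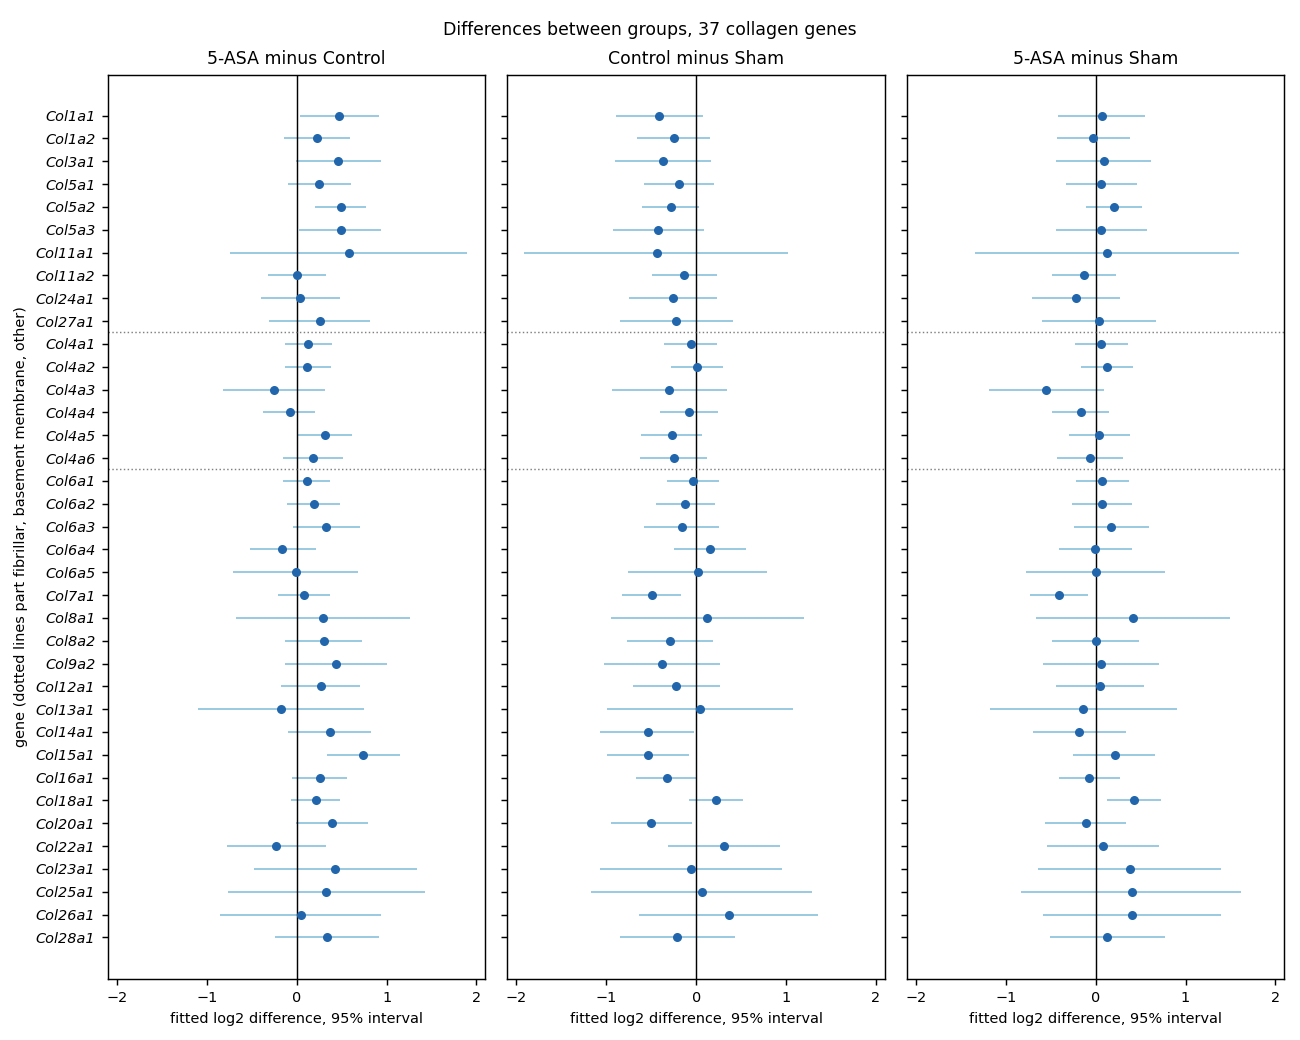
Fitted log2 difference (points) with its 95% interval (lines) for the 37 collagen genes in 5-ASA minus Control, Control minus Sham and 5-ASA minus Sham. Fibrillar collagens lie right of 0 in the first panel, left of 0 in the second and around 0 in the third, and most intervals cross 0.

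The collagen median of 5-ASA against Control depended on the mice included. It was 0.07 without Control 3 and Control 4, with 23 collagens higher and 14 lower and a fibrillar median of 0.09. These mice were chosen after their low levels were seen, so the smaller median follows in part from that choice. Within slides the collagen median was 0.02 on slide 1 and 0.37 on slide 2, and the fibrillar median was 0.20 and 0.40. With the array row as a covariate it was 0.46, the fibrillar median was 0.59, and 9 collagens were higher at an unadjusted p under 0.05. Leaving out 1 mouse at a time gave 0.15 (without Control 4) to 0.33 (without Control 1). The 5 collagens at an unadjusted p under 0.05 became 11 without Control 1 and 9 without Control 5. They became 3 without Control 2, 5-ASA 2 or 5-ASA 4, and 2 without Control 3, Control 4 or 5-ASA 5. The share of all genes at that p is not given for the alternatives in any comparison, so such counts do not single out collagens.

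Control against Sham mice, which sets DSS and saline against water, used the same Control mice, so the differences are not independent of those above. Here 28 of 37 collagens had a lower mean in Control mice. They were all 10 fibrillar, 5 of 6 type IV and 13 of 21 others, where 51.6% of all genes were higher and 48.4% lower. Among the 10 fibrillar genes, all 7 measured on every array were lower, and the others were the dim Col11a1, Col11a2 and Col24a1. With quantile normalization 32 of 37 were lower. The median difference was -0.22 over the collagens and 0.008 over all genes, and it was -0.27 for fibrillar, -0.16 for type IV and -0.12 for other collagens. No collagen was called (limma, adjusted p of 0.559 or more), against 14 of all genes tested (0.057%). At an unadjusted p under 0.05, 4 collagens were lower and 0 higher, against 3.24% of all genes lower and 5.64% higher, 8.88% together. The Control and Sham levels overlapped for all 37 collagens, while Control lay entirely above Sham for 2.71% of all genes and entirely below for 0.623%.

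These 4 were Col7a1, Col15a1, Col20a1 and Col14a1. Col15a1 was well above background on 4 of 4 Sham and 2 of 6 Control arrays. It passed the filter only through its Sham arrays, where it was higher than in Control mice, so it adds no support to this count. Col7a1 averaged -1.07 ± 0.27 in Control (SD, n = 6) and -0.58 ± 0.19 in Sham mice (SD, n = 4), a log2 difference of -0.49 with an SE of 0.15 (limma, adjusted p = 0.559). It was -0.53 and -0.46 within slides, and -0.36 without Control 3 and Control 4. Col20a1 averaged -1.63 ± 0.51 in Control and -1.13 ± 0.18 in Sham mice, a difference of -0.50 with an SE of 0.21 (limma, adjusted p = 0.559), which was -0.20 without those mice. Its other probe gave -0.49.

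Col14a1 averaged 0.91 ± 0.57 in Control and 1.46 ± 0.28 in Sham mice, a difference of -0.54 with an SE of 0.25 (limma, adjusted p = 0.559). Its probe lies in the outermost spot row, and its other probe gave -0.26. Col15a1 differed by -0.54 (SE 0.21, adjusted p = 0.559), and its other probe gave 0.13. Col1a1 differed by -0.41 (SE 0.23), Col3a1 by -0.37 (SE 0.25) and Col1a2 by -0.25 (SE 0.19), with adjusted p of 0.588, 0.658 and 0.694. These were -0.05, -0.01 and 0.02 without Control 3 and Control 4. The type IV chains differed by -0.06 for Col4a1 and 0.01 for Col4a2 (SE 0.14 each), -0.30 for Col4a3 (SE 0.30), -0.08 for Col4a4 (SE 0.15), -0.27 for Col4a5 (SE 0.16), and -0.25 for Col4a6 (SE 0.17). The type VI chains differed by -0.04 for Col6a1 (SE 0.14), -0.12 for Col6a2 (SE 0.15) and -0.16 for Col6a3 (SE 0.19). The second probe of Col4a6 gave 0.18. Col18a1 was among the 9 collagens with a higher mean in Control mice, by 0.22 (SE 0.14, adjusted p = 0.641).

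Once Control 3 and Control 4 were left out, 18 collagens were higher and 19 lower in Control than in Sham mice, with a median of -0.01. This too follows in part from leaving out mice seen to be low. The collagen median was -0.20 within each slide and -0.09 with the array row as a covariate, and with 1 mouse left out it was -0.31 (without Control 1) to -0.10 (without Sham 1), with -0.12 without Control 4. The 4 collagens at an unadjusted p under 0.05 became 10 without Control 5, 8 without Control 1, and 2 without Control 3, Control 4 or Sham 1.

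In 5-ASA against Sham mice the collagen differences centred near 0. A higher mean in 5-ASA mice was found for 25 of 37, where 51.4% of all genes were higher and 48.6% lower, and the median difference was 0.06, against 0.006 over all genes. It was 0.06 for fibrillar, -0.01 for type IV and 0.07 for other collagens. None was called (limma, adjusted p of 0.347 or more), against 0.057% of all genes. At an unadjusted p under 0.05, 1 collagen was higher and 1 lower, against 6.14% and 4.71% of all genes, 10.9% together. The 5-ASA and Sham levels overlapped for all 37 collagens, while 5-ASA lay entirely above Sham for 1.06% of all genes and entirely below for 0.758%. The difference for Col1a1 was 0.07, with a 95% interval from -0.42 to 0.55, and that for Col3a1 was 0.09, with an interval from -0.44 to 0.62.

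Col18a1 was the higher gene. It averaged 2.21 ± 0.27 in 5-ASA (SD, n = 6) and 1.78 ± 0.13 in Sham mice (SD, n = 4), a log2 difference of 0.43 with an SE of 0.14 (limma, adjusted p = 0.347), which is a 1.35-fold higher signal. Both kept probes gave 0.43, and the value was 0.41 and 0.44 within slides. Col7a1 was the lower gene, at -0.99 ± 0.23 in 5-ASA and -0.58 ± 0.19 in Sham mice, a difference of -0.41 with an SE of 0.15 (limma, adjusted p = 0.351). Col4a3 had the next smallest p, with a difference of -0.55 and an SE of 0.30 (limma, adjusted p = 0.532). It was well above background on 2 of 6 5-ASA and 4 of 4 Sham arrays, which lay in different rows of the slides.

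With the row on the slide as a covariate, the 5-ASA against Sham values were 0.23 for Col18a1 and -0.10 for Col7a1, the collagen median was 0.34 and the fibrillar median 0.38. The 2 groups share no row, so these values rest on the Control mice. The fibrillar median was -0.10 on slide 1 and 0.21 on slide 2. Without Sham 2, 18 collagens were higher, 19 were lower and none was lower at an unadjusted p under 0.05. Without Sham 4, 5-ASA 2 or 5-ASA 4, 2 were lower at that p.

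Of 39 genes for collagen folding, trimming, cross-linking and binding, 38 were measured, and none was called in any comparison (limma). In 5-ASA against Control mice 32 were higher and 6 lower, with a median of 0.18 and 3 higher at an unadjusted p under 0.05, where 1.41% of all genes were higher at that p. In Control against Sham mice 12 were higher and 26 lower, with a median of -0.15 and 2 in each direction at that p, where 5.64% of all genes were higher and 3.24% lower. In 5-ASA against Sham mice 27 were higher and 11 lower, with a median of 0.05 and 4 higher at that p, where 6.14% of all genes were higher.

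Serpinh1, the chaperone dedicated to collagen, ranged from 2.83 over 2.89 to 3.17 in 5-ASA mice and from 1.36 over 2.57 to 3.10 in Control mice, and was at 3.05, 2.84, 2.88 and 2.75 in Sham mice. Control 3 at 1.36 and Control 4 at 1.56 were again the lowest mice, and the next had 2.55. It differed by 0.60 in 5-ASA against Control (limma adjusted p = 0.999) and by -0.55 in Control against Sham mice (adjusted p = 0.562). Sparc, a collagen-binding matrix protein, differed by 0.33 and -0.32 in these comparisons, and the cross-linking enzyme Loxl1 by 0.40 and -0.47. The collagen receptor Ddr2 differed by 0.33 and -0.32, and the propeptide-trimming protease Adamts2 by 0.30 and -0.41. The related proteases, chosen after their values were seen, did not share the sign in Control against Sham mice. Adamts14 differed there by 0.37 (adjusted p = 0.559), with Control above Sham mice without overlap, as for 2.71% of all genes, and Adamts3, well above background on 6 arrays, by 0.83 (adjusted p = 0.671).

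P4hb, a subunit of prolyl 4-hydroxylase, was higher by 0.46 in 5-ASA than in Sham mice (adjusted p = 0.347) and by 0.37 in Control than in Sham mice (adjusted p = 0.559). In Control against Sham mice the catalytic subunit P4ha1 had -0.43 and the lysyl hydroxylase Plod2 -0.21. The alternative subunits P4ha2 and P4ha3, also chosen after their values were seen, had 0.26 and 0.25 there. In 5-ASA against Control mice the cross-linking enzymes Lox and Loxl2 had 0.17 and 0.30, the protease Bmp1 had 0.16 and its enhancer Pcolce had 0.22, each with an adjusted p of 0.999.

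**Figure D5:**
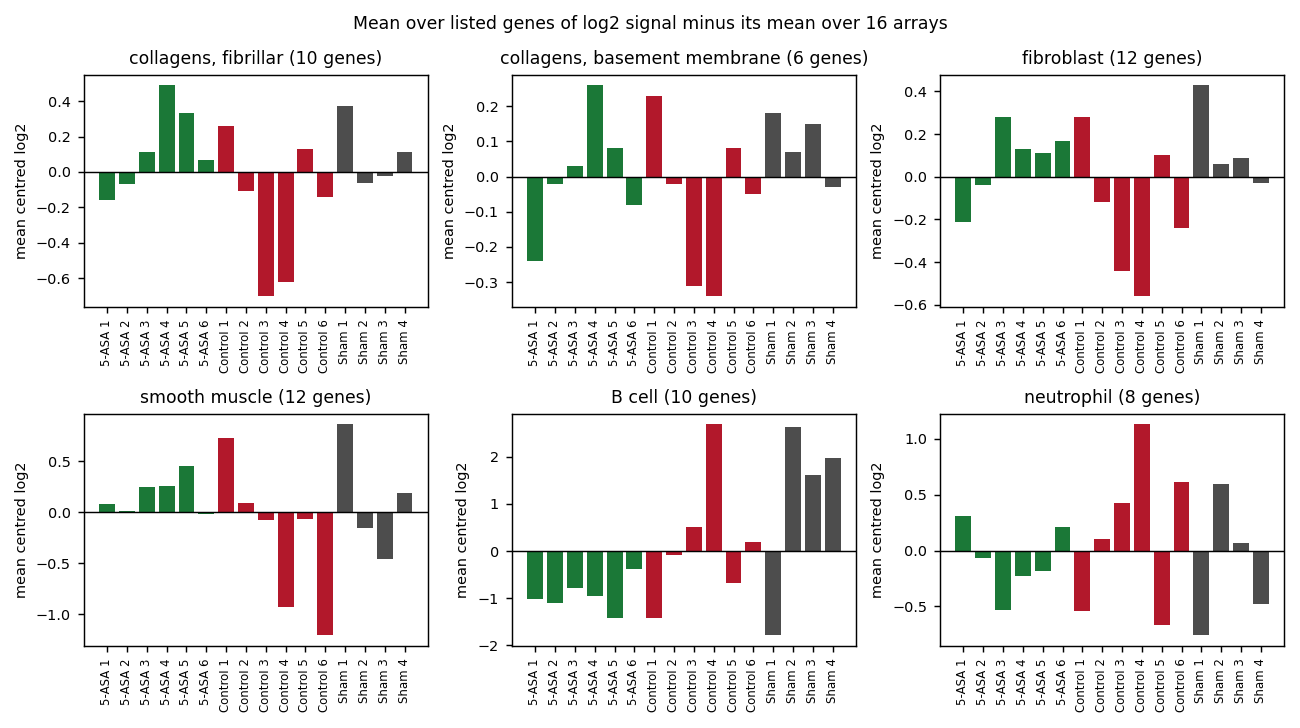
Mean level of 6 gene lists in each mouse (bars, coloured by group), as the mean over the listed genes of log2 signal minus its mean over 16 arrays, with separate vertical scales. The fibrillar collagens and fibroblast genes are lowest in Control 3 and Control 4, and smooth muscle genes in Control 4 and Control 6.

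Marker genes of other cells moved with the collagens in part. A list level is the mean over its genes of log2 signal minus the gene's mean over all arrays. The fibrillar level ran from -0.16 to 0.49 in 5-ASA, from -0.70 to 0.26 in Control and from -0.06 to 0.37 in Sham mice, with Control 3 at -0.70 and Control 4 at -0.62. The level of 12 fibroblast markers ran from -0.21 to 0.28, from -0.56 to 0.28 and from -0.03 to 0.43 in the same groups, with Control 3 at -0.44 and Control 4 at -0.56. In Control against Sham mice 10 of these 12 were lower, 6 of them at an unadjusted p under 0.05, where 3.24% of all genes were lower at that p, and none was called.

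The level of 12 smooth muscle markers ran from -0.02 to 0.45 in 5-ASA, from -1.21 to 0.73 in Control and from -0.46 to 0.86 in Sham mice. Control 6 at -1.21 and Control 4 at -0.93 were low and Control 3 at -0.08 was not, whereas the fibrillar level of Control 6 was -0.14. All 12 had a higher mean in 5-ASA than in Control mice and a lower mean in Control than in Sham mice, with none called and none at an unadjusted p under 0.05. All 8 markers of enteric neurons and glia went the same way, with Control 4 at -1.15 and Control 6 at -0.86.

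The level of 10 B cell markers ran from -1.42 to -0.38 in 5-ASA, from -1.42 to 2.69 in Control and from -1.79 to 2.63 in Sham mice, with Control 4 at 2.69 and Control 3 at 0.51. All 10 had a lower mean in each comparison, with median differences of -0.95 in 5-ASA against Control, -1.05 in Control against Sham and -1.95 in 5-ASA against Sham mice. In the last, 9 of the 10 were lower at an unadjusted p under 0.05, where 4.71% of all genes were lower at that p, and none was called. The mean level of the 8 of 10 measured neutrophil markers was highest in Control 4 at 1.13, where S100a8 at 1.44 and S100a9 at 2.24 were the highest of all mice and Mpo at -5.37 was the lowest. The mean level of the 10 epithelial markers lay within -0.16 and 0.15 in all mice, although single markers varied more. The mean level of the 8 endothelial markers ran from -0.35 to 0.23. That of the 7 of 8 measured markers of stratified squamous epithelium ran from -0.40 to 0.42. For the 6 of 8 measured markers of cartilage and bone it ran from -0.50 to 0.23. The part of these cells in the collagen levels was not tested.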

How the data were processed

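Expression was measured in 16 colorectal samples, 1 array per mouse. Per the file headers, Agilent Feature Extraction 10.10.1.1 made the deposited spot intensity, background-subtracted and detrended but not scaled between arrays. The deposited mean spot intensity and background intensity are uncorrected pixel values, and the flags of 0 or 1 used for signal well above background and outlying spots come from the same files. The deposited value table, whose scale the sources used here do not give, was set against the scanner values. The authors' values fitted log2 intensity less the array's 75th percentile, with each probe centred on its median over the 4 Sham arrays, with r from 0.992 to 0.998. Scale, centring and direction were inferred this way. Its column medians were 0.111 to 0.223 for 5-ASA, -0.188 to 0.206 for Control and -0.0461 to 0.0709 for Sham arrays.

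From the scanner files, log2 intensity minus the array's 75th percentile was taken over 55681 probes, without outlying spots and with spots of a probe averaged. Of these, 35087 passed the filter of 4 or more arrays well above background, and each gene took its brightest kept probe. RefSeq (GRCm38.p6) named 27656 probes by accession and updated 1711 symbols. Probe positions are those of mm9, and the exon or UTR they lie in was not analysed here.

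A single limma 3.58.1 model (R 4.3.3) held the 3 groups and no covariate, and its p-values were adjusted over all genes by Benjamini-Hochberg, with calls at 0.05. The procedure was tested on simulated data. The 6 chain pairs used 1e+05 permutations, adjusted over the pairs, in Python 3.11.15 with numpy 2.4.6. The labels call the mice biological replicates but give no litter. Precision is limited by how many mice there were.

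The collagens, the list of collagen processing and receptor genes, the marker lists, the tests and the 20 genes set to be named, with the 3 smallest p per comparison added, were chosen with earlier results of these data known. Of those 20, Col17a1 was not kept. Alternative settings covered background correction, scaling, filters, slides, array row, replicate numbers, probes, spot position, the authors' table and each mouse left out. The alternative without Control 3 and Control 4 was chosen after seeing these data. Smaller differences of Control mice under it follow in part from that choice.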

Additional observations from a re-analysis of the deposited data

Results flagged for a closer look

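Of 123 sets of levels, each of 1 of the 37 collagens or of 1 of 4 means over collagens in 1 group of mice, 4 held a mouse whose gap to its nearest neighbour was large against the range of the group. Chance gives about 1 in 20 such sets. Col1a2 was at 5.21 in Sham 2, and the nearest Sham mouse had 5.39. Col18a1 was at 2.40 in Control 6, and the nearest Control mouse had 1.98. Col11a2 was at -4.98 in 5-ASA 1, and the nearest 5-ASA mouse had -4.31, and Col28a1 was at -4.88 in the same mouse, with the nearest at -4.16. Col11a2 and Col28a1 were each well above background on 3 of 6 5-ASA arrays. The low levels of Control 3 and Control 4 did not meet this measure, because the low mice are a pair.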

How the results depend on the processing

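Each comparison was run under 34 alternative settings. Of 1996 values of named collagens, 1928 kept their direction and their side of the threshold, 66 changed direction, 19 of them with 1 mouse left out, and 2 were newly called. Without the filter on dim probes, Col5a2 (0.49, limma adjusted p = 0.0398) and Col15a1 (0.74) were called in 5-ASA against Control mice. These were 2 of 37 collagens, where 2937 of 34947 genes tested were called, against 0 with the filter. The calls were therefore not particular to collagens. In 5-ASA against Sham mice 3271 of 34947 genes were called without the filter, against 14 with it. That setting called 1 collagen processing gene in 5-ASA against Control and 1 in 5-ASA against Sham mice, among these many calls over all genes. The mean of all kept probes called 1 in Control against Sham and 1 in 5-ASA against Sham mice. There 15 and 14 of 24543 genes were called. Over all genes, the filter of all 16 arrays left 1 call in Control against Sham and 2 in 5-ASA against Sham mice, the spots without the outer 12 rows left 0 in both, and the Control and Sham groups alone gave 7. Slide 1 alone gave 4 and 2 calls in these comparisons and slide 2 alone 1 and 4, and the array row gave 10 and 8, with 7 in 5-ASA against Control mice. Leaving out 1 mouse gave up to 23 in 5-ASA against Sham mice (without 5-ASA 4), and without Control 3 and Control 4 Control against Sham mice gave 8. The collagens at an unadjusted p under 0.05 numbered 2 in 5-ASA against Control and 2 in Control against Sham mice with the 2 groups fitted alone, 2 and 1 without Control 3 and Control 4, and 3 and 1 on slide 1.

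The collagen median of 5-ASA against Control mice was 0.02 on slide 1. That of 5-ASA against Sham mice was -0.10 on slide 1 and 0.34 with the array row as a covariate, and with 1 mouse left out it ran from -0.00 (without Sham 2) to 0.14 (without Sham 1). Of the chain pairs, r for Col1a1 and Col4a1 was 0.59 on slide 1, and without the 2 farthest mice r was 0.51 for Col1a1 and Col1a2, 0.32 for Col5a1 and Col5a2 and 0.42 for Col1a1 and Col4a1. The cause was not tested.

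With the replicate block, the collagen median of 5-ASA against Sham mice was -0.02, and no collagen was called. Same-numbered mice had correlated deviations in some pairs only (r from -0.21 to 0.61 in Control against Sham, 0.03 to 0.23 in 5-ASA against Control and -0.20 to 0.16 in 5-ASA against Sham), so the numbers were not taken to pair the mice. Under the block, Col4a2 turned to -0.07 in Control against Sham, and in 5-ASA against Sham mice Col1a1 turned to -0.04, Col3a1 to -0.07, Col5a1 to -0.05, Col5a3 to -0.06, Col6a2 to -0.04 and Col4a1, Col4a5 and Col6a1 to -0.01.

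With the array row, Col6a1 turned to 0.01 in Control against Sham, and in 5-ASA against Sham mice Col1a2 to 0.34, Col4a6 to 0.35, Col14a1 to 0.51, Col15a1 to -0.09 and Col16a1 to 0.08. With the mean of all kept probes, Col4a6 turned to 0.13 and Col6a2 to -0.01 in 5-ASA against Sham. Quantile normalization gave -0.02 for Col4a2 in Control against Sham, and leaving out Control 4 and Control 6 gave -0.03. Slide 1 gave -0.11 for Col4a2 in Control against Sham, -0.01 for Col4a1, -0.02 for Col4a2 and -0.03 for Col6a1 in 5-ASA against Control, and in 5-ASA against Sham -0.04 for Col3a1, -0.10 for Col5a1, -0.08 for Col5a3, -0.19 for Col4a1, -0.13 for Col4a2, 0.06 for Col4a6, -0.09 for Col6a1 and -0.08 for Col6a2. Slide 2 gave 0.05 for Col4a1 in Control against Sham and 0.04 for Col1a2, 0.06 for Col14a1 and 0.04 for Col16a1 in 5-ASA against Sham. Without Control 3 and Control 4, Control against Sham gave 0.02 for Col1a2, 0.05 for Col5a1 and Col4a1, 0.10 for Col6a1, 0.06 for Col6a2 and Col12a1 and 0.09 for Col6a3, and 5-ASA against Control gave -0.04 for Col1a2, -0.01 for Col4a6 and Col12a1, -0.03 for Col6a1 and -0.05 for Col7a1.

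With 1 mouse left out, Control against Sham ran from -0.13 to 0.06 for Col4a1, -0.06 to 0.13 for Col4a2 and -0.11 to 0.03 for Col6a1, and 5-ASA against Control ran from -0.02 to 0.14 for Col7a1. In 5-ASA against Sham mice the ranges were -0.07 to 0.01 for Col1a2, -0.03 to 0.16 for Col5a1, -0.02 to 0.10 for Col4a5, -0.14 to 0.02 for Col4a6, -0.01 to 0.14 for Col6a2 and -0.05 to 0.20 for Col12a1. Signal near background limits Col15a1 and the other dim collagens.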
